A study of Mus musculus with 8 samples.

Results

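The genes described here are 39 genes of the cell cycle and of DNA replication, followed through the accessible DNA around them in mouse bone-marrow-derived macrophages. Accessibility was measured by ATAC-seq, in which a transposase cuts open DNA and tags the fragments for sequencing, and the authors called peaks in each of 8 libraries. Overlapping peaks of the 8 lists were merged into 76751 regions, and each region went to the protein-coding gene with the nearest end of its gene span within 50 kb. By that rule 159 regions belonged to 35 of the 39 genes, and 4 genes (Mcm4, Mcm7, Pcna and Aurka) had none. The 41 regions with a summit no more than 1 kb from an end of the span are termed gene-end here and the other 118 distal (60 of them inside the span). The rule uses no difference between groups, but the regions and their summits come from the peaks called in these data.

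There were 4 groups of 2 libraries each. Untreated wild type macrophages (WT) were set against wild type macrophages activated with lipopolysaccharide (LPS) for 6 h. Both treatments were repeated in macrophages labelled Lamin-A KO (KO). Lamin-A is a product of the Lmna gene, a filament protein lining the inside of the nucleus, and its absence is known here from the label alone. In all 4 groups marrow cells were seeded for 7 days in 60 mm dishes, and the harvested cells were cryopreserved in medium containing 5% DMSO before they were thawed and tagmented. Libraries were amplified with 10 cycles of PCR. The labels give neither the dose of LPS, the part of Lmna that was deleted, the growth factor, nor the sex of the mice, and do not say whether the 2 libraries of a group came from separate animals, so the spread between them may be technical. The word Untreated also stands in the source names of libraries given LPS, whose titles and treatment fields were followed. Per its design text, the study examined how LPS affects accessibility and what role Lamin-A/C has in it.

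Cell division is driven by cyclins and the kinases they switch on. D-type cyclins with Cdk4 or Cdk6 and E-type cyclins with Cdk2 inactivate the pocket proteins Rb1 and Rbl1, which frees E2F factors to transcribe the genes of S phase. Replication starts where Cdc6 and Cdt1 have loaded the Mcm helicase, and B-type cyclins with Cdk1 then take the cell into mitosis. Macrophages grown from marrow divide in response to M-CSF, and LPS is known to halt that proliferation. Inhibitors such as Cdkn1a, Cdkn1b and Cdkn2c restrain the kinases.

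Gene-end regions are the most constant feature of the data. Promoter sequences are therefore shown first for genes with the highest-ranked gene-end regions and a word known from cell cycle promoters in their promoter window. Each is a RefSeq window of the GRCm38.p6 assembly from 250 bases before to 50 after a gene's start, read along the gene's strand. Capitals mark E2F words (TTTCCCGC, TTTGGCGC, TTTCGCGC or TTTGCCGC) and the CHR word of late cell cycle genes (TTTGAA), on either strand.
Cdc6 (chr11:98907901-98908200, plus strand): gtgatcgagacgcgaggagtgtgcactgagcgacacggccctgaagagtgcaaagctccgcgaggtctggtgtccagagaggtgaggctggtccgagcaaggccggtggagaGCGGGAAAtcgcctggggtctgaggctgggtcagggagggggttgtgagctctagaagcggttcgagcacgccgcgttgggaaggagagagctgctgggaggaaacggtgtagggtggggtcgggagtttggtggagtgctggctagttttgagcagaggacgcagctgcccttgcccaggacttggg
Mcm3 (chr1:20820263-20820562, minus strand): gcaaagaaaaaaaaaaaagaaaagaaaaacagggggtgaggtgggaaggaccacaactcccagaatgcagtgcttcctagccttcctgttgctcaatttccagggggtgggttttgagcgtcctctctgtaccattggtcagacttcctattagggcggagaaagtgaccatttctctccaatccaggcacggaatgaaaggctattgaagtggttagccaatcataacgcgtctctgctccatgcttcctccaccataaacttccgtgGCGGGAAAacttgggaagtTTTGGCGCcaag
Cdc20 (chr4:118437294-118437593, minus strand): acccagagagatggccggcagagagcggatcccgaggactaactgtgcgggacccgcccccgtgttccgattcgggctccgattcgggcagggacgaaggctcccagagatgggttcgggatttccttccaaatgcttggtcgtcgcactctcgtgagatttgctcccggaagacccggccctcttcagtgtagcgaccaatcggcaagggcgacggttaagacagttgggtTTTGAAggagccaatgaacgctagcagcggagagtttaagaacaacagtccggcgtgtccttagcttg
Top2a (chr11:99024140-99024439, minus strand): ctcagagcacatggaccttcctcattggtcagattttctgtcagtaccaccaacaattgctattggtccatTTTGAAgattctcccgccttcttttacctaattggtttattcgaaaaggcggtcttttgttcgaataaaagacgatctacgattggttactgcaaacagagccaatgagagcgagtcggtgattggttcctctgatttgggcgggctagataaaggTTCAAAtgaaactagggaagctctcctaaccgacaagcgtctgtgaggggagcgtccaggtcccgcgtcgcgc
Mcm5 (chr8:75109259-75109558, plus strand): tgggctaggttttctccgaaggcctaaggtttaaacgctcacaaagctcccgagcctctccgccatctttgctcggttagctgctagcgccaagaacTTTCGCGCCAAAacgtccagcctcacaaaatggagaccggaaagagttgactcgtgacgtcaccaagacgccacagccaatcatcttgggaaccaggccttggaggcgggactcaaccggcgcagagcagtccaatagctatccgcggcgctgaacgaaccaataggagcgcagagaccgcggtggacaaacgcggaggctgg
Ccnb2 (chr9:70421505-70421804, minus strand): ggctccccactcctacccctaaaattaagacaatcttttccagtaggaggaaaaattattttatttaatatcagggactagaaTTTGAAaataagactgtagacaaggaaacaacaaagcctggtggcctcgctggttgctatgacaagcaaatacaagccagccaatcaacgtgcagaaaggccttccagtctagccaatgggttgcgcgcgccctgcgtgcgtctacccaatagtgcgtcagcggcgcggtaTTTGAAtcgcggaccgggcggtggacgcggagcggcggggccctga
The Mcm3 window holds the E2F word TTTCCCGC on the other strand, its first base 19 bases after the start, and TTTGGCGC 38 bases after it. In Mcm5 the capitals are TTTCGCGC and TTTGGCGC, which overlap on opposite strands. Cdc20 has its CHR word 18 bases before the start. In Cdc6 the marked word lies downstream of the called region, which ends within the window at 98907984. For the other genes above, the gene-end region covers the whole window.

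Windows are also shown for members with no gene-end region. Pcna and Aurka had no region, and for Cdk6 and Cdkn1a the windows that overlapped a region lie inside the gene span, over 1 kb from its end. Cdkn1a has a pair of start windows, and only the second overlapped a region.
Pcna (chr2:132253131-132253430, minus strand): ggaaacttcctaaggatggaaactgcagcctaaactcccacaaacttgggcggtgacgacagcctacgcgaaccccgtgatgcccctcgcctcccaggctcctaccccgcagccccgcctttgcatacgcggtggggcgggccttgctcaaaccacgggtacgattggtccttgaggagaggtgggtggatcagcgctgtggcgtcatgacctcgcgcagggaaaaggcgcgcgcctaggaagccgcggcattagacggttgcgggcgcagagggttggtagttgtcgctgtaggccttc
Aurka (chr2:172370521-172370820, minus strand): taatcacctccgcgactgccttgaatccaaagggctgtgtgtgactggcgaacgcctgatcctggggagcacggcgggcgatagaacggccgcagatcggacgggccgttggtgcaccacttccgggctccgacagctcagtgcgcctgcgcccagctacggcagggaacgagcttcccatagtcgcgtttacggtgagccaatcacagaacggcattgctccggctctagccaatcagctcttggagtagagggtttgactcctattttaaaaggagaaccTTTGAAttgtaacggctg
Cdk6 (chr5:3343643-3343942, plus strand): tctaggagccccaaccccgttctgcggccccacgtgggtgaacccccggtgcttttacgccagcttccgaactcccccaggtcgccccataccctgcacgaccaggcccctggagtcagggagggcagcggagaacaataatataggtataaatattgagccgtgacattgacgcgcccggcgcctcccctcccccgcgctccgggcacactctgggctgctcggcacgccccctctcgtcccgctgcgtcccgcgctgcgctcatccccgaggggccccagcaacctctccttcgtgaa
Cdkn1a (chr17:29090729-29091028, plus strand): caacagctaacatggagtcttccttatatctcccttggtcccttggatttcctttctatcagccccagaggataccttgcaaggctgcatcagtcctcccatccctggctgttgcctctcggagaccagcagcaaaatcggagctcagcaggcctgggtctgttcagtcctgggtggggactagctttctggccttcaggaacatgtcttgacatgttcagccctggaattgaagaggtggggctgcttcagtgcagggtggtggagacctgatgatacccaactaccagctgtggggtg
Cdkn1a (chr17:29093519-29093818, plus strand): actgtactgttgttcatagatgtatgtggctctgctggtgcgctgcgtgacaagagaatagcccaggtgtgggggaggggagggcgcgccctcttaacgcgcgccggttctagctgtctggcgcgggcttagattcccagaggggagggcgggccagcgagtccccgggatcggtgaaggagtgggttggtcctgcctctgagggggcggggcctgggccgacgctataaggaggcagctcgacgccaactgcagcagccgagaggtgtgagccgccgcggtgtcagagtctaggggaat
Only Aurka among these holds a marked word, TTTGAA 32 bases after the start.

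RefSeq promoter windows were matched for 32 of the 39 genes, 37 windows in all, and none for Aurkb, Rb1, Ccna2, Ccne2, Ccnd1, Ccnd2 and Mcm4. A region called in all 8 libraries overlapped 30 of the 37 windows (81.1%), against 31.2% of all 32851 windows. E2F words were in 10 of the 37 windows (27.0%), those of Cdc6, Cdk1, Cdk2, Cdt1, E2f2, Mcm3, Mcm5, Mcm6, Mcm7 and Rbl1, against 2.26% of all windows and 4.62% of windows under a region called in all 8. The CHR word was in 9 windows (24.3%), of Aurka, Ccnb2, Cdc20, Cdk1, E2f2, Mcm2, Mki67, Plk1 and Top2a, against 17.9% and 11.3%. The CCAAT word, read by NF-Y, was in 24 windows (64.9%), against 37.4% and 39.5%. A match is only a description of the letters in the window.

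The 8 lists held 44504 to 59750 peaks covering 17.9 to 24.96 Mb, and all KO lists were shorter than any of the WT lists. In WT, 122 and 126 of the 159 were called in the untreated libraries and 128 and 120 with LPS. The shares were 76.7%, 79.2%, 80.5% and 75.5%, against 69.3%, 71.0%, 76.8% and 71.3% of all regions. In KO, 105 and 109 were called untreated and 101 and 97 with LPS. The shares there were 66.0%, 68.6%, 63.5% and 61.0%, against 56.9%, 60.2%, 63.3% and 57.7%. Libraries of 1 group shared 79.8 to 88.6% of their combined member regions, and libraries of different groups 70.4 to 83.1%. Over all regions these ranges were 78.4 to 82.3% and 58.7 to 75.5%. Of 12 regions assigned to Lmna, 8 or 9 were called in each library, and its gene-end region had a fold of 10.6 to 13.7 in all 8. Calls at 2 of the 12 divided by the genotype labels: chr3:88483646-88484020 had folds of 3.40 to 5.91 in the 4 WT libraries and no peak in KO, and chr3:88484558-88484979 had folds of 5.46 to 7.63 in the 4 KO libraries and no peak in WT. How these calls relate to the deletion was not tested, since its position is not in the labels. All 10 macrophage markers had a gene-end region in all 8 libraries, against 0 of 6 B cell, 0 of 6 T and NK cell, 2 of 6 neutrophil (S100a8 and Camp), 1 of 6 erythroid (Tal1) and 1 of 6 stromal markers (Col1a1). Of the 30 regions of the stromal list, 15 and 17 were called in WT untreated, 27 and 23 in WT LPS, 10 and 14 in KO untreated and 18 and 12 in KO LPS libraries. With LPS in WT 10 of them (33.3%, against 10.1% of all regions) were gained, 5 at Pdgfrb, 3 at Cdh5 and 1 each at Pdgfra and Pecam1. In KO after LPS 6 of them (20%, against 6.94% of all regions) were lost. Their part in the results below was not tested. In such bulk lists, fewer cells with an open site and less signal per cell cannot be told apart, and a region that is not called is not shown to be closed.

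Most ends of cell cycle genes were called in every library, with and without LPS and in both genotypes. Of the 41 gene-end regions, 32 (78.0%) were called in all 8 libraries, against 67.4% of all gene-end regions. Distal regions were more variable, with 49 of 118 (41.5%) called in all 8, against 35.6% of all distal regions. Over both kinds, 81 of 159 (50.9%) were called in all 8, against 40.3% of all regions. In all, 30 of the 39 genes had a gene-end region in every library. On genes with a known strand, 27 of the 32 gene-end regions at the start side were called in all 8, and neither of the 2 at the 3′ side was. The remaining 7, on genes with no strand in the tables, included 5 called in all 8.

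**Figure D1:**
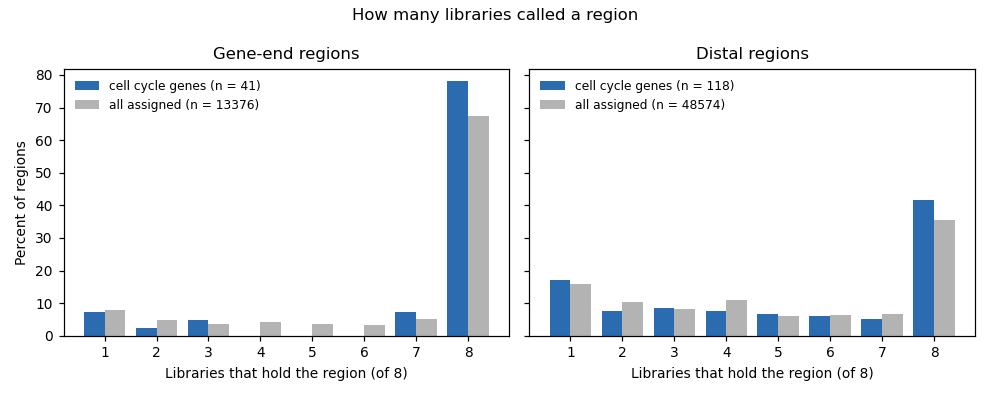
Percent of regions (vertical axis) by the number of libraries, out of 8, that called them (horizontal axis), for gene-end regions (left) and distal regions (right). Blue bars are cell cycle genes and grey bars all regions assigned to a gene; the bar at 8 libraries is the tallest in both panels, at 78.0% of the 41 gene-end and 41.5% of the 118 distal regions of cell cycle genes.

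The strength of a region is given below as the authors' fold enrichment over local background, taken at the peak and not summed over its length, and as its percentile rank by that fold among the 30960 regions called in all 8 libraries. The median rank of member gene-end regions was 61.1, against 62.5 for all gene-end regions, and that of member distal regions 36.3, against 43.7. Median widths were 709.5 bp at gene ends and 495 bp at distal sites, against 696 and 499 bp for all such regions. Member ends were thus called in a higher share of cases than gene ends at large, with a similar median rank. Just inside the 1 kb limit lay regions of Ccna2 at 873 bp, Ccne2 at 856 bp and Cdk4 at 845 bp, each called in 8 libraries, and just outside it regions of Cdkn2c at 1056 bp, called in 3, Rb1 at 1107 bp, called in 8, and Ccnd2 at 1153 bp, called in 6. The farthest regions still assigned lay 46430 bp from Cdk6, 44991 bp from Ccnd2 and 44373 bp from Rrm2.

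**Figure D2:**
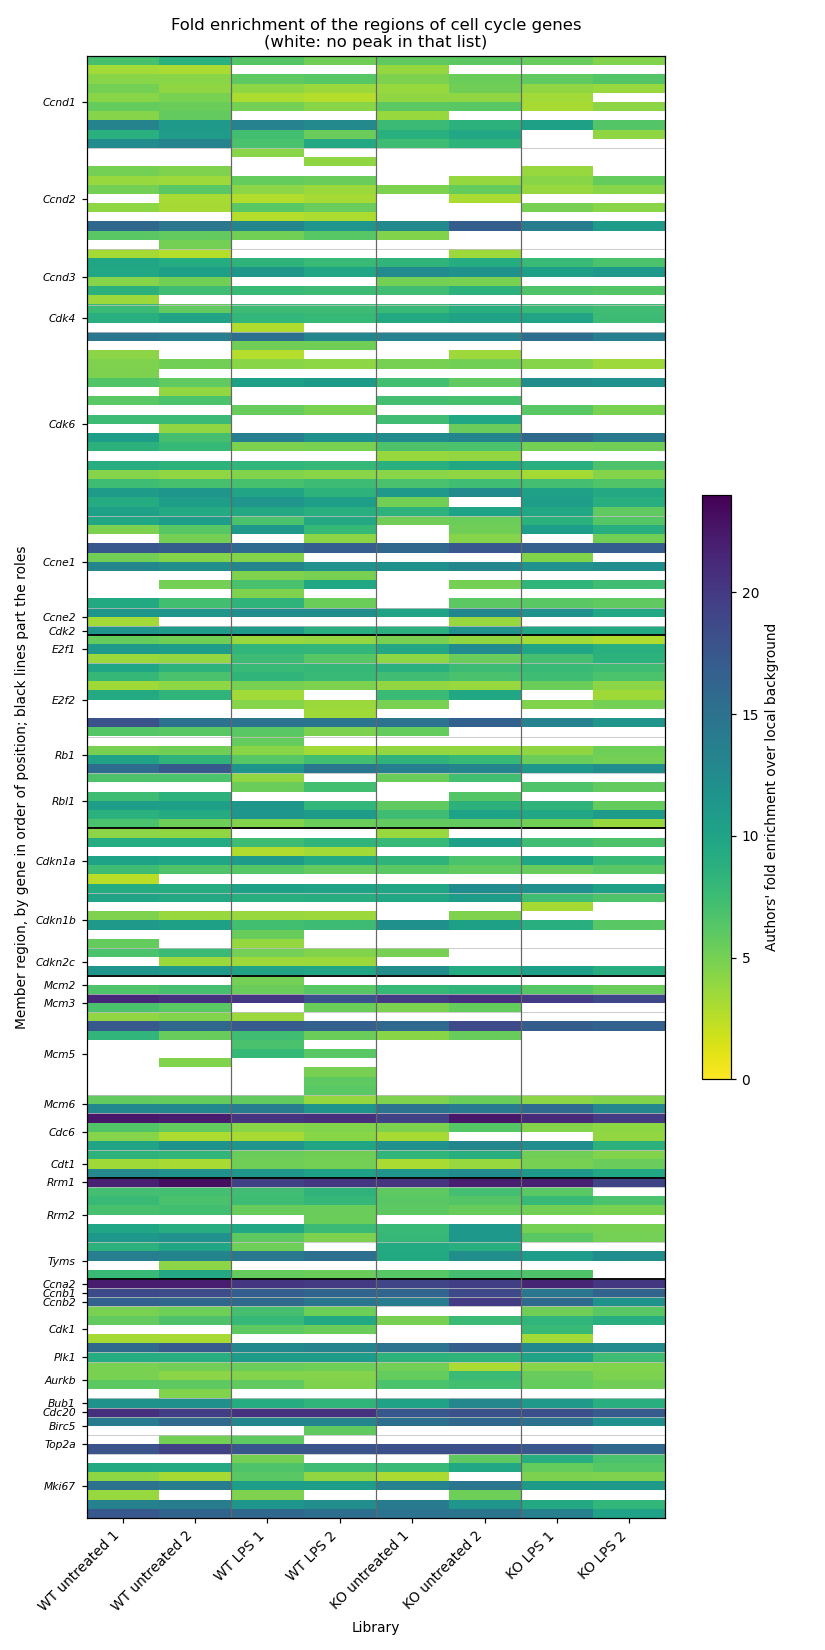
The authors' fold enrichment (colour) of each of the 159 regions of cell cycle genes (rows, by role and gene) in each of the 8 libraries (columns). White cells are regions without a peak in that list; dark rows called in every library, such as those of Cdc6, Mcm3, Ccna2, Cdc20 and Rrm1, are gene-end regions, and rows with several white cells occur at Ccnd2, Cdk6 and Mcm5.

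Genes of S phase and mitosis had some of the strongest gene ends. Of their 12 genes, 11 had a gene-end region in all 8 libraries, with a median rank of 82.0, and 17 of their 26 regions (65.4%) were called in all 8. The region of Ccna2, cyclin A2 of S phase and G2, at chr3:36571818-36572532, had folds of 22.2 and 21.98 in WT untreated, 20.2 and 19.9 in WT LPS, 18.9 and 19.5 in KO untreated and 21.5 and 20.1 in KO LPS libraries, a median rank of 98.8. Cdc20, the activator of the anaphase promoting complex, had folds of 17.1 to 20.7 at chr4:118437156-118437782, a median rank of 96.1. These are among the highest of any region called in all 8.

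Next in rank came Top2a, the DNA topoisomerase that untangles sister chromatids (94.0), and Ccnb1 and Ccnb2, the B-type cyclins of mitosis (92.8 and 86.2). They were followed by Cdk1, the kinase those cyclins activate (82.0), Birc5, survivin of the chromosomal passenger complex (81.3), and Mki67, the proliferation marker Ki-67 (73.9). The kinases of the spindle and its checkpoint ranked lower, Bub1 at 57.9, Plk1 at 42.1 and Aurkb at 14.1. Aurkb, the catalytic kinase of the passenger complex, had folds of only 4.67 to 7.26 at its end.

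Replication genes included the strongest gene end of all members. Cdc6, a loader of the Mcm helicase, had folds of 22.5 and 22.1 in WT untreated, 20.4 and 20.8 in WT LPS, 19.3 and 22.5 in KO untreated and 21.1 and 19.7 in KO LPS libraries at chr11:98907383-98907984, a median rank of 99.1. Among subunits of the helicase, Mcm3 ranked at 98.1 (folds of 18.0 to 21.3), Mcm5 at 92.6, Mcm6 at 78.4 and Mcm2 at 19.5. Cdt1, which loads the helicase with Cdc6, ranked at 64.3. The Mcm subunits form 1 ring, yet the ends of Mcm3 and Mcm2 did not overlap in rank in any library, with 96.2 the lowest of Mcm3 and 36.7 the highest of Mcm2.

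Mcm4, Mcm7, Pcna and Aurka, the genes without a region, fall into a pair of cases. At Mcm7 the start lay under the region at chr5:138171729-138172365, which went to the neighbour Ap4m1 because its summit was 33 bp from that gene and 123 bp from Mcm7. That region had folds of 11.8 to 13.4 in all 8 libraries, a median rank of 75.1. At Mcm4, Pcna (the sliding clamp of the polymerases) and Aurka (the centrosomal kinase Aurora A), no list held a peak within 1 kb of either end. The numbers in the peak names run in genome order, and at these 3 genes they skipped at least 1 number in all 8 lists between the neighbouring peaks. No other member end without a peak had a skipped number. A peak with that number is not in the lists used here, so nothing can be read about accessibility at these 3 genes.

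Nucleotide supply genes were divided. Rrm1, the large subunit of ribonucleotide reductase, had folds of 19.1 to 23.1 at chr7:102441477-102442005 and a median rank of 98.8, whereas Rrm2, the small subunit, had folds of 6.13 to 7.99 and a rank of 26.2. The start-side region of Tyms, thymidylate synthase, had folds of 5.51 to 9.55 in 7 libraries and no peak in KO LPS replicate 2.

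The all-library gene ends of G1 cyclins and their kinases had a median rank of 50.3, below the 62.5 of all gene ends. Some of these genes had none. Ccne1 and Ccne2, the E-type cyclins, lay above that value, at 70.7 and 65.7. Their kinase Cdk2 ranked at 56.6 and Cdk4 at 44.0. The ends of the D-type cyclin gene spans were weak or not called in every library. Ccnd1 had folds of 3.61 to 5.17 in all 8 libraries, a rank of 2.22. Ccnd2 had a gene-end region in the 2 WT LPS libraries alone, with folds of 2.71 and 2.97, and the start of Ccnd3 was called in 3 libraries with folds of 2.66 to 3.498. A second start window of Ccnd3, chr17:47593217-47593516, lay under a region called in all 8 libraries with folds of 6.58 to 11.5, a median rank of 39.8, which the rule gave to its neighbour Bysl. Cdk6 had no gene-end region, and the all-library region over its promoter window ranked at 4.02.

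Among E2F and pocket proteins, E2f1 ranked at 52.8, Rb1 at 30.4, Rbl1 (p107) at 11.0 and E2f2 at 3.47. A second region 620 bp from the end of E2f1 ranked at 1.96, the lowest of the member gene-end regions. Of the inhibitors of cyclin-dependent kinases, Cdkn2c (p18) ranked at 55.9 and Cdkn1b (p27) at 43.1, and the second start window of Cdkn1a (p21) lay under an all-library region of rank 16.5. The 3 highest gene ends of all members were thus those of Cdc6, Ccna2 and Rrm1, and the 3 lowest those of E2f1 (its second region), Ccnd1 and E2f2.

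Distal regions were concentrated on few genes. The 13 genes with 5 or more regions held 111 of the 159, led by Cdk6 with 20, Ccnd2 with 11 and Ccnd1 and Ccne1 with 10 each, while 8 genes had a single region. Genes of G1 cyclins and their kinases had 63 regions, 27 of them (42.9%) called in all 8. Some distal regions were as strong as gene ends, such as those 12.9 kb from Ccne1 (median rank 90.1) and 42.5 kb from Mki67 (86.2). A further 23 member regions were called in 1 library only, and in 14 of these (60.9%) it was a WT LPS library, against 39.3% of all regions called in 1 library. The WT LPS lists included the longest of the 8.

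A region found in both LPS (or KO) libraries and in none of the untreated (or WT) ones is termed gained, and the opposite lost. With 2 libraries against 2 an exact two-sided p cannot go below 0.333, so no region was given a p. In the 4 comparisons of 2 groups, 35 of the 159 member regions, on 14 genes, were gained or lost at least once. The share of all regions that were so was not computed. Of the 35, 3 were gene-end regions. G1 cyclins and their kinases, which had the most regions, held 17 of them among 63 regions, on 5 genes. E2F and pocket proteins held 5 among 21, inhibitors 5 among 16 and replication genes 4 among 22. S phase and mitosis genes held 3 among 26, all at Cdk1, and nucleotide supply genes 1 among 11, at Tyms.

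With LPS in WT macrophages, a smaller share of member regions than of regions at large was gained. There were 9 gained (5.66%, against 10.1% of all regions) and 10 lost (6.29%, against 6.02%). Gained regions were 2 at Cdk6 and 1 each at Cdk1, Cdkn1a, Rbl1, E2f2, Ccnd2, Ccne1 and Mcm5, and lost ones 2 each at Ccnd1, Ccnd3 and Cdk6 and 1 each at Ccnd2, Cdk1, Cdkn1a and Rbl1. When every list was cut to its 44504 strongest peaks by −log10 p, which leaves 130 member regions, 3 were gained (2.31%, against 9.01%) and 17 lost (13.1%, against 7.52%). Gains and losses among members were close as deposited, and losses outnumbered gains with equal lists. Gains outnumbered losses, at 16 and 15, without WT LPS replicate 1, and at 17 and 11 without WT LPS replicate 2, while 9 were gained and 16 lost without WT untreated replicate 1. Fewer libraries then have to agree, and the share gained stayed below that of all regions in each of these 3 settings. The shares lost were 9.87%, 7.24% and 10.3%, against 9.96%, 7.82% and 10.2%, in the same order.

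LPS in KO macrophages gained 4 member regions (2.52%, against 8.03% of all regions) and lost 9 (5.66%, against 5.56%). Gains were at Cdk1, Cdk6, Rbl1 and Ccnd2, and losses at Cdk6 (3), Ccnd1, Ccnd3, Mcm3, Mcm5, Rbl1 and Tyms. With equal lists there were 6 gained (4.62%, against 8.78%) and 10 lost (7.69%, against 7.45%). The gained count was 7 without KO untreated replicate 1, 9 without its partner and 9 without KO LPS replicate 2. These were 4.40%, 5.66% and 5.66%, against 9.31%, 10.2% and 13.0% of all regions. Losses numbered 17 and 15 without KO untreated replicates 1 and 2 (10.7% and 9.43%, against 9.96% and 8.20%). In both genotypes the members' share of gains was below that of all regions, and whether the genotypes differ was not tested.

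Part of these low shares goes with the many member regions called in every library, which can be neither gained nor lost. Of the 78 member regions that were not called in all 8, LPS gained 11.5% and lost 12.8% in WT, against 16.97% and 10.1% of all such regions. In KO it gained 5.13% and lost 11.5%, against 13.5% and 9.32%. The member shares of gains stayed below the background on this count too.

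**Figure D3:**
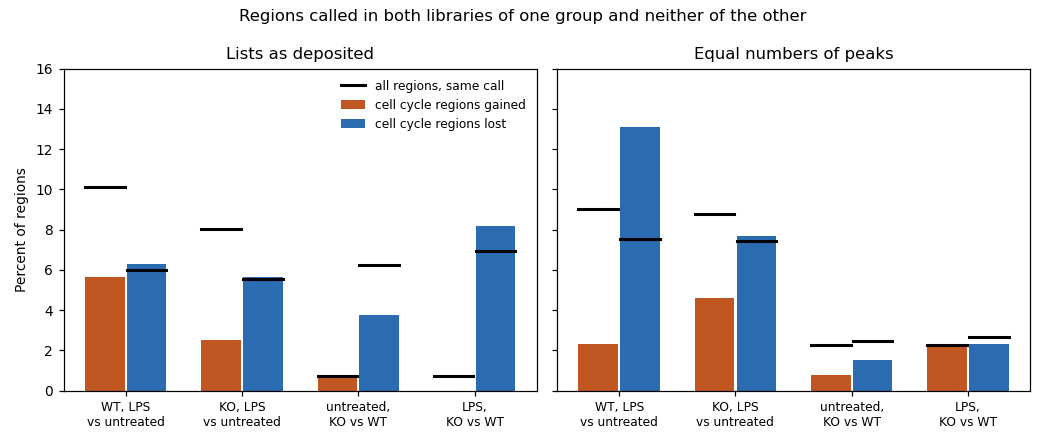
Percent of regions gained (orange) and lost (blue) in the 4 comparisons of 2 groups (horizontal axis), for the 159 cell cycle regions with the lists as deposited (left) and the 130 with equal numbers of peaks (right). Black lines give the same percent over all regions; gains with LPS lie below the line in both genotypes and both panels, and losses in WT LPS are at 6.29% on the left and 13.1% on the right.

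Across both genotypes, 2 member regions were called in all 4 LPS libraries and no untreated one (1.26%, against 4.85% of all regions), and 3 in all 4 untreated libraries and no LPS one (1.89%, against 1.79%). With equal lists 2 were gained, at Ccnd2 and Ccne1 (1.54%, against 5.315%). There were then 6 lost (4.62%, against 3.27%), 2 at Cdk6 and 1 each at Ccnd3, Mcm3, Rbl1 and Tyms. The count of 3 was 5 without WT LPS replicate 1 (3.29%, against 2.77%) or KO untreated replicate 1 (3.14%, against 2.74%). It was 6 without KO untreated replicate 2 (3.77%, against 2.38%). At Cdk6, the kinase partner of D-type cyclins, the region chr5:3367122-3367486, 26.3 kb into the gene, had folds of 5.54 and 4.86 in WT LPS and 6.18 and 4.82 in KO LPS and no peak in the untreated lists. Its neighbours went the other way. The region chr5:3359161-3359509 had folds of 6.17 and 6.80 in WT and 7.16 and 6.99 in KO untreated libraries, and chr5:3369313-3369711 had 7.54 and 7.67 and 7.34 and 9.61, and neither had a peak with LPS. Calls at 3 sites within the same stretch of the gene therefore differed with LPS in opposite directions.

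The other gain was at Rbl1, which encodes the pocket protein p107. Its region chr2:157153264-157153610, 7.59 kb from the end and inside the gene, had folds of 5.36 and 7.31 in WT LPS and 6.58 and 5.75 in KO LPS libraries. Inside Ccnd3, cyclin D3, the lost region chr17:47521554-47521909 had folds of 4.32 and 5.09 in WT and 5.01 and 4.86 in KO untreated libraries. The 3 losses were the same with equal lists, whereas the 2 gains then no longer divided all libraries, because the WT LPS lists lost the Cdk6 peaks and 1 of the Rbl1 peaks.

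**Figure D4:**
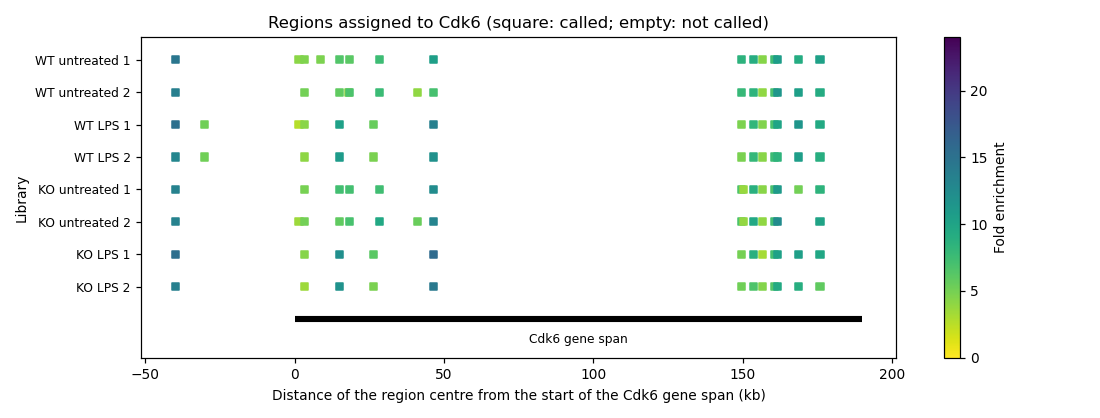
The 20 regions assigned to Cdk6 in each library (rows), by distance of the region's centre from the start of the Cdk6 gene span in kb (horizontal axis); squares are called regions coloured by the authors' fold enrichment. The squares near 18 and 28 kb are present in the 4 untreated libraries and absent in the 4 LPS libraries, and the square near 26 kb shows the reverse.

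Other LPS losses lay at D-type cyclins and at an inhibitor. The region chr7:144943352-144943741, 3.71 kb outside Ccnd1 (cyclin D1), had folds of 4.40 and 5.75 in WT untreated, 3.66 in KO untreated replicate 1 and no peak elsewhere. That at chr7:144935639-144935926 inside Ccnd1 had 3.33 and 3.09 in WT untreated and 3.75 in KO untreated replicate 1. The start of Ccnd3, chr17:47504981-47505223, had 3.26 and 2.66 in WT untreated and 3.498 in KO untreated replicate 2. In each case no LPS library held the region, but in KO only 1 of 2 untreated libraries did.

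Further losses with LPS in KO lay at Ccnd1, Tyms and Mcm5. The region chr7:144981669-144982072, 42.0 kb from Ccnd1, had folds of 12.4 and 13.2 in WT untreated, 6.93 and 9.52 in WT LPS, 7.46 and 8.41 in KO untreated and no peak in either KO LPS library. At chr5:30035918-30036304, 2.46 kb from Tyms, folds were 8.57 and 9.92 in WT untreated, 9.29 and 8.94 in KO untreated, 5.31 in WT LPS replicate 1 and none in the other LPS libraries. A region of Mcm5 inside the gene, chr8:75119786-75120152, had 8.21, 5.56, 7.35 and 5.36 in the WT libraries, 4.28 and 5.57 in KO untreated and no peak in KO LPS. All 3 stayed lost in KO with equal lists.

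Cdkn1a, the inhibitor p21, showed calls of both kinds in WT upstream of the gene. The region chr17:29080791-29081020, 10.1 kb from the end, had folds of 2.88 and 3.30 in WT LPS and no peak in the other 6 libraries. The region chr17:29076252-29076556 had 4.13 and 3.99 in WT untreated, 3.72 in KO untreated replicate 1 and no peak with LPS. Of the 7 regions of Cdkn1a, 4 were called in all 8 libraries. No region of Cdkn1a was gained with LPS in KO.

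In untreated macrophages, 1 member region was gained in KO (0.629%, against 0.735% of all regions) and 6 lost (3.77%, against 6.22%). The gain was at Cdk6, chr5:3491263-3491538, with folds of 3.66 and 3.88 in KO untreated and no peak elsewhere. Losses were 2 at Cdk1, 2 at Ccnd2, 1 at Ccne1 and 1 at Mcm5. With equal lists there were 1 gained (0.769%, against 2.27%) and 2 lost (1.54%, against 2.49%). With a −log10 p of at least 20, 10 were lost (7.75%, against 6.49%), so the members' share of losses lay below or above the background by setting. The lost count rested on every library. It was 13 without WT untreated replicate 1 (8.33%, against 11.9% of all regions) and 10 without replicate 2 (6.49%, against 10.8%). Without KO untreated replicates 1 and 2 it was 15 and 12 (9.43% and 7.55%, against 9.09% and 10.5%). The gained count was 2 without either of the KO untreated libraries (1.26% each, against 2.85% and 1.65%).

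After LPS, no member region was gained in KO (0%, against 0.711% of all regions) and 13 were lost (8.18%, against 6.94%). The losses were 3 at Ccnd2, 2 each at Cdkn2c and Mcm5, and 1 each at Ccnd1, Ccne1, Cdk6, Cdkn1a, Cdkn1b and E2f2. Of the 13, 5 were found in the WT LPS lists and no other list (3.14% of member regions, against 2.40% of all), at Ccnd2, Ccne1, Cdk6, Cdkn1a and Mcm5. At chr8:75152713-75153034, 24.4 kb from Mcm5, folds were 7.96 and 6.12, the highest of these 5. With equal lists 3 were gained and 3 lost (2.31% each, against 2.26% and 2.67%), the losses at Ccnd1, Cdkn1b and Mcm5. Keeping peaks from a −log10 p of 20 upward, 5 were lost (3.88%, against 7.13%). The share of losses above the background as deposited was thus below it in these 2 settings. The lost count was 21 and 27 without WT LPS replicates 1 and 2 (13.8% and 17.8%, against 11.2% and 14.8% of all regions). Without KO LPS replicate 2, 3 regions were gained (1.89%, against 2.785%), and without WT LPS replicate 1, 1 (0.658%, against 1.84%).

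No member region divided all 4 KO from all 4 WT libraries, in either direction, against 0.0678% of all regions called in KO alone and 0.861% in WT alone. No test stands behind these counts of 0, since calls were compared without a p. The count in WT alone was 3 without KO untreated replicate 1 (1.89%, against 1.25% of all regions). It was 1 without KO untreated replicate 2, WT untreated replicate 1 or WT LPS replicate 2. The shares were then 0.629%, 0.641% and 0.658%, against 1.39%, 1.30% and 1.61%.

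Some distal calls followed both factors. The region chr6:127150854-127151226, 1.15 kb from the end of Ccnd2 (cyclin D2) and inside it, had folds of 4.06 and 3.25 in WT untreated, 6.12 and 5.44 in WT LPS and 4.91 and 4.28 in KO LPS libraries, and no peak in KO untreated. The region chr10:69320767-69321105, 14.2 kb from Cdk1, had 4.82 and 5.31, 7.03 and 5.30, and 5.21 and 6.16 in the same groups, and again no peak in KO untreated. Both were therefore gained with LPS in KO, but were called in WT with and without LPS. With equal lists, both were still gained with LPS in KO, and neither was still lost in untreated KO.

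Strength was then compared by rank in the 81 member regions called in all 8 libraries. With LPS, 10 (12.3%) ranked higher in every LPS than in every untreated library, against 12.2% of the 30960 regions, and 11 (13.6%) lower in every one, against 13%. These shares were near the background. The smallest exact permutation p was 0.0556, the least that 36 arrangements allow, and 30 of the 81 (37.0%) had it, against 36.1% of all. The smallest adjusted p (Benjamini-Hochberg over 30960 regions, exact permutation within genotypes) was 0.154, and no region could have an unadjusted p under 0.05. The following values are therefore descriptions.

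The largest difference in rank with LPS was at Cdk6, at chr5:3355492-3356321, 14.98 kb into the gene. Its folds were 6.52 and 5.89 in WT untreated, 10.4 and 10.9 in WT LPS, 7.31 and 5.90 in KO untreated and 12.1 and 11.9 in KO LPS libraries. Mean rank was higher with LPS by 46.1 percentile points in WT and 53.4 in KO, and every LPS library ranked it above every untreated one.

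A region chr2:154574190-154574612, 4.44 kb from E2f1, had ranks of 0.722 and 1.58 in WT untreated, 28.0 and 19.4 in WT LPS, 2.15 and 9.65 in KO untreated and 30.1 and 52.4 in KO LPS libraries. That 13.7 kb from Cdk1, chr10:69321273-69321660, had 10.0 and 17.3, 32.0 and 51.4, 7.24 and 29.1, and 41.8 and 55.3 in the same order. The Rbl1 region chr2:157201397-157201914, 2.87 kb inside its start, had 33.8 and 38.5, 63.6 and 63.5, 32.0 and 50.4, and 54.8 and 70.7. In all 3 the LPS libraries lay above the untreated ones. The gene-end regions that ranked higher in every LPS than in every untreated library were those of Rrm2, Ccne1 and E2f2. Their differences were 14.3, 6.13 and 6.47 points over both genotypes. The highest difference at a gene end, 17.6 points, was that of Plk1. There KO LPS replicate 2, at 42.0, lay below KO untreated replicate 1, at 42.2.

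Ranks lower in every LPS than in every untreated library were seen at the ends of Mki67, Cdk1 and Rb1. The start of Mki67, chr7:135716317-135716842, had folds of 15.1 and 13.9 in WT untreated, 10.7 and 10.6 in WT LPS, 13.4 and 14.6 in KO untreated and 11.0 and 11.1 in KO LPS libraries. Its ranks were 75.1 to 79.8 untreated and 57.3 to 72.7 with LPS. At the start of Cdk1, ranks were 83.0 to 89.9 untreated and 72.6 to 81.1 with LPS. At the start of Rb1 they were 31.2 to 46.0 and 12.9 to 29.6. These are changes in order within a list in which the ends stayed called in all 8 libraries.

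Among distal regions the lowest difference in rank with LPS, -39.4 points, was at chr12:24758289-24758739, 44.4 kb from Rrm2. It had folds of 11.2 and 11.8 in WT untreated, 5.97 and 4.74 in WT LPS, 8.04 and 11.2 in KO untreated and 6.12 and 5.05 in KO LPS libraries. A region 6.58 kb from Cdt1, chr8:122561185-122561648, had 8.46 and 8.16, 5.37 and 5.18, 8.18 and 8.95, and 5.19 and 4.55 in that order. LPS and untreated folds did not overlap at either region. The other distal regions that ranked lower in every LPS library were at Cdkn1b, Cdk6, Mki67, Ccnd1, Cdc6 and Ccnd3, and the others that ranked higher at Ccnd1, Cdt1 and E2f2.

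**Figure D5:**
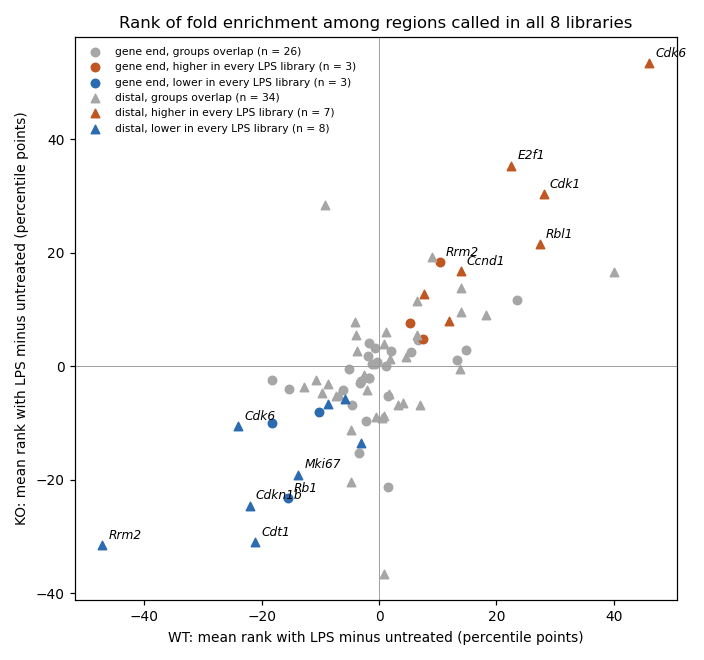
Mean rank with LPS minus untreated, in percentile points, in WT (horizontal axis) and KO (vertical axis) for each of the 81 regions of cell cycle genes called in all 8 libraries. Circles are gene-end and triangles distal regions; coloured points rank higher (orange, 10) or lower (blue, 11) in every LPS than in every untreated library, and the Cdk6 region at 46.1 and 53.4 lies farthest to the upper right.

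Between genotypes, 4 of the 81 regions (4.94%) ranked higher in every KO than in every WT library, against 5.43% of all, and 2 (2.47%) lower, against 3.39%. The smallest exact permutation p was again 0.0556, held by 16 regions (19.8%, against 20.7% of all), with a smallest adjusted p of 0.269 by the exact permutation test. The end of Aurkb had ranks of 11.9 and 11.6 in WT untreated, 13.0 and 6.10 in WT LPS, 25.2 and 25.5 in KO untreated and 15.9 and 15.3 in KO LPS libraries. Its folds overlapped, at 4.67 to 6.07 in WT and 5.22 to 7.26 in KO. Leaving out WT LPS replicate 1 made the count of 4 a 7, leaving out KO LPS replicate 2 made it a 10, and that of 2 was 4, 5 and 4 without WT LPS replicates 1 and 2 and KO LPS replicate 1. The others that ranked higher were a second Aurkb region, a Cdk4 and a Cdk6 region.

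The end of Cdc20 ranked lower in KO, at 94.2 and 92.1 untreated and 95.6 and 96.0 with LPS, than in WT, at 97.5 and 96.2 untreated and 98.5 and 99.1 with LPS. A region 42.5 kb from Mki67 was the other lower one. Both differences were small beside those with LPS at Cdk6. Larger genotype differences, in ranks that overlapped, were at Ccnd1 and Cdk6. At chr7:144963781-144964320, 24235 bp from Ccnd1, KO minus WT was -26.2 points untreated and -30.7 with LPS. Its folds were 11.1 to 13.4 in WT and 6.43 to 10.4 in KO. At chr5:3387163-3387587 of Cdk6 it was 38.1 and 14.6 points. Over both treatments these 2 were the lowest and highest of the 81, at -28.4 and 26.4 points (-61.3 and 52.8 over all regions). The median difference of members was 1.28 points between genotypes (0.375 over all regions) and -1.23 with LPS (-0.32 over all regions).

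Further genes of the same pathways were read from lists of functional groups. Of 34 other G1/S and replication genes, 33 had a region, and 27 of their 31 gene-end regions (87.1%) were called in all 8 libraries. Of 33 other G2/M and mitosis genes, 30 had a region, and 27 of 28 gene-end regions (96.4%) were called in all 8. Of 30 other cell cycle regulators, 29 had a region, with 30 of 41 gene-end regions (73.2%) called in all 8. All 3 shares were above the 67.4% of all gene-end regions. Distal regions called in all 8 made up 25.4%, 38.3% and 38.6% of theirs.

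In those lists, LPS in WT gained 8 of 94 G1/S regions and lost 5, gained 8 of 88 G2/M regions and lost 7, and gained 13 of 142 regulator regions and lost 4. The shares gained, 8.51%, 9.09% and 9.15%, lay below the 10.1% of all regions, and those lost were 5.32%, 7.95% and 2.82%, against 6.02%. In KO it gained 3, 4 and 10 (3.19%, 4.55% and 7.04%, against 8.03%) and lost 5, 3 and 9 (5.32%, 3.41% and 6.34%, against 5.56%) in the same order. Genes with at least 2 gained regions in WT included Pola2 (of the primase complex, 3 of 9), Bub1b (spindle checkpoint, 2 of 7), Incenp (passenger complex, 2 of 10), Btg1 (antiproliferative, 4 of 13), Gadd45a (stress response, 3 of 14) and Mdm2 (regulator of p53, 2 of 7). Of these, Btg1 (3), Gadd45a (2) and Mdm2 (2) had at least 2 in KO as well. Tk1, thymidine kinase, lost 2 of 6 in WT, and in KO Cenpe, a kinetochore motor, lost 2 of 4 and Myc, a transcription factor of growth, 6 of 10.

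Between genotypes, untreated KO lost 6, 7 and 3 regions of these lists (6.38%, 7.95% and 2.11%, against 6.22% of all regions). It lost 2 each at Bub1b, Kif11 and Nuf2, and gained 0, 0 and 1 (0%, 0% and 0.704%, against 0.735%). After LPS, KO lost 8, 6 and 10 (8.51%, 6.82% and 7.04%, against 6.94%). It gained 0, 1 and 3 (0%, 1.14% and 2.11%, against 0.711%). Losses of at least 2 were at Gins2 (2 of 12), Bub1b (2 of 7), Gadd45a (2 of 14, with 2 others gained) and Myc (5 of 10). The KO lists are the shorter ones, and the part of list length in these losses was not tested gene by gene.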

How the data were processed

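The 8 deposited files were peak lists, 1 a library, with replicates called separately. Per the submitters' processing notes, BWA 0.7.12 and MACS2 were used with mm10. The deposited lists give each peak a score, a fold enrichment (a ratio over local background made by the authors' caller), a −log10 p, a −log10 q and the summit's distance from the peak's start. The authors' filter is not given in the sources used here. Read depth is unknown, and no counts were used.

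Peaks overlapping by at least 1 bp were merged, and regions were assigned by summit to the nearest end of a RefSeq gene span (GRCm38.p6) within 50 kb. Calls were compared as counts, without p. Ranks of fold were compared by exact two-sided permutation over libraries within the other factor (36 arrangements), adjusted by Benjamini-Hochberg over 30960 regions. Python 3.11.15, numpy 2.4.6 and pandas 2.3.3 were used, and the code was tested on simulated data. Alternatives were equal numbers of peaks, a −log10 p of at least 20, peaks covering at least 50% of a region, genes within 20 kb, gene ends within 2.5 kb, other ranks, a replicate block and each library left out.

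The text names every member region gained or lost by counts per gene, those dividing 4 from 4 libraries, gene-end regions, and, in other lists, genes with at least 2 gained or lost regions. One gene of these lists that met the rule is not reported here. The regions described beyond that, and those named for rank, were chosen after their values were seen. Members and lists were chosen with earlier results of these data known. Replicate numbers did not pair the libraries.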

Additional observations from a re-analysis of the deposited data

Results flagged for a closer look

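In 2 of the 81 member regions called in all 8 libraries (2.47%, against 3.14% of all regions), both LPS libraries ranked on one side of the untreated ones in WT and on the other side in KO. At the gene-end region of Ccna2 starting at 36571818 on chromosome 3, mean rank with LPS minus untreated was -0.703 percentile points in WT and 3.15 in KO. At the Rb1 region starting at 73324563 on chromosome 14, 1107 bp from the gene's end, it was -4.04 in WT and 7.84 in KO. The difference between genotypes was not tested in either case. Groups of 2 libraries are too small for a check of single outlying libraries.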

How the results depend on the processing

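Read depth is unknown, and list length differs between genotypes. With equal numbers of peaks, WT LPS gained and lost 3 and 17 member regions, untreated KO lost 2, LPS KO gained 3 and lost 3, and 6 divided all untreated from all LPS libraries. With a −log10 p of at least 20, WT LPS gained 3 (2.33%, against 10.1% of all regions) and lost 16 (12.4%, against 6.99%). Untreated KO gained 0 (against 0.779%) and lost 10, and LPS KO gained 1 (0.775%, against 0.590%) and lost 5. As gained and lost, 1 and 6 regions divided LPS from untreated libraries (0.775% and 4.65%, against 5.07% and 2.34%). In WT alone 1 was called (0.775%, against 0.889%). With peaks covering at least 50% of a region, KO LPS gained 8 (5.03%, against 8.56%). With genes within 20 kb, untreated KO gained 0 (against 0.735%) and 1 region was gained in all LPS libraries (0.794%, against 4.85%).

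With 1 library left out, gained and lost counts ranged from 9 to 17 and 11 to 16 in WT LPS, 4 to 9 and 11 to 17 in KO LPS, 1 to 2 and 10 to 15 in untreated KO, and 0 to 3 and 15 to 27 in LPS KO. Lost regions dividing LPS from untreated libraries ranged from 3 to 6, and KO from WT from 0 to 3. Of ranks, those higher and lower in every KO library ranged from 5 to 10 and 2 to 5, and were 2 and 1 when ranked by −log10 p and 1 (higher) among all peaks. These counts widen by construction when fewer libraries must agree. Of the recomputed counts and shares, 158 were equal or stayed within 1.5 times their value and 55 did not. The members' share of losses crossed that of all regions in each of the 4 comparisons under at least 1 setting, for example in untreated KO (7.75% against 6.49% with the −log10 p limit, 9.43% against 9.09% without KO untreated replicate 1) and in LPS KO (2.31% against 2.67% with equal lists, 3.88% against 7.13% with that limit). Of 57 named calls, 28 no longer divided all libraries of their comparison with equal lists, 35 with the −log10 p limit and 1 with the cover limit.

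Deviations of same-numbered libraries correlated at -0.0772 to 0.0335 between groups, so the numbers were not taken as pairs. With the replicate block, requiring only that every same-numbered pair moves alike, 21 regions ranked higher and 18 lower with LPS and 13 higher and 9 lower in KO. Calls were compared as counts without a test, by choice, so no block was applied to them.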
